A study of Homo sapiens with 4 samples.

Results

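RAD21 peaks at the 3′ ends of protein-coding genes were described in wild-type HCT116 cells, a human colon carcinoma line. A peak was taken as a member when its summit lay on chromosomes 1 to 22, within 1 kb of the 3′ end of a protein-coding gene of GENCODE version 44, and more than 1 kb from the 5′ end of every annotated transcript. The rule used positions only and no height of a peak. It kept 1124 members of 55201 autosomal peaks, or 2.04%, and the whole list held 56853 peaks. A further 563 peaks lay within 1 kb of a 3′ end but too close to a 5′ end and were left out. The members were nearest to the 3′ ends of 1104 genes, and because 107 of them had more than 1 gene end in reach, 1232 genes had a member.

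The study made 4 libraries without replicates. RAD21 was precipitated from untreated WT HCT116 cells, from untreated HCT116_RAD21_AID cells and from HCT116_RAD21_AID cells that had received IAA and α-NAA, both at 500 μM, for 6 h; the fourth library was Input chromatin of the auxin-treated line. HCT116_RAD21_AID is a single clone with the mAID degron on RAD21 and a gene for the ubiquitin ligase OsTIR1, a pair that lets auxins trigger loss of the protein. All values derive from the untreated WT library's peaks, which carries neither the degron nor OsTIR1, and the 3 remaining libraries went into no comparison. Every interval given is a 95% interval that covers counting error within this library only, peaks are not replicates, and no p-value is given.

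RAD21 is the kleisin subunit that closes the cohesin ring. Cohesin extrudes loops of DNA and is held in place by CTCF, a zinc finger protein that binds a directional motif and stops the ring mostly when it is met from 1 side. Cohesin can also be moved along a gene by transcription, and in cells that lack CTCF and the unloading factor WAPL it gathers past the ends of active genes, above all between genes that point at each other. The 3′ end of a gene is where its transcript is cleaved and polyadenylated, and polymerase runs on past it before it is released. Transcription was not measured here, so whether a gene was active in these cells is not known from the list.

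To show the sites behind the strongest members, the 30 bases around the CTCF core consensus, a 12-base pattern, are given for 3 members in each of 4 classes. These are the 3 with the highest fold enrichment among members with a match, save PTP4A3, at 49.7, and RHPN1, at 24.5, both upstream members of genes with a convergent neighbour, whose sequences are not printed because of their location and not their values. The classes cross the side of the 3′ end, upstream (within the gene) or downstream (past its end), with the next protein-coding gene past the end. That neighbour is called convergent where it lies on the opposite strand, so that the 3′ ends of both genes face each other. All other genes are called other. Sequences are from GRCh38, are read 5′ to 3′ on the strand of the match, and have the 12 bases of the consensus in capitals.
RPS19BP1: gccgcgcggCCAGCAGATGGCgatgcagga
ENGASE: gggaagaggCCACCAGGTGGCagcacagcc
CHMP1A: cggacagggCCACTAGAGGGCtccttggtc
RAB7B: gctgcctgaCCACCAGAGGGCagcagtgct
SURF6: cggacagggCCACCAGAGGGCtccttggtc
MMP17: accggaaggCCAGCAGAGGGCactgtccgc
GPR153: ctctgcagtCCACCAGGTGGCggtgttgca
WBP1L: agcagatggCCACTAGATGGCagcagtagc
GRM2: cagggctcaCCAGCAGAGGGCactaaggta
SH3TC1: cgagcttccCCACCAGGGGGCagcagagag
SAMD10: cagccgcggCCACCAGGGGGCagtggcgtc
SERPINA12: cgcctgtggCCACTAGAGGGCaccaggtgc

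The first 3 are upstream members of genes with a convergent neighbour: RPS19BP1 at chr22:39529386-39529415 on the minus strand, ENGASE at chr17:79087754-79087783 on the plus strand and CHMP1A at chr16:89641363-89641392 on the minus strand. RAB7B (chr1:205977563-205977592, minus), SURF6 (chr9:133329519-133329548, minus) and MMP17 (chr12:131851395-131851424, plus) are upstream members of other genes. All 6 upstream sites lie in untranslated exons. Downstream members of genes with a convergent neighbour are GPR153 (chr1:6246881-6246910, plus), WBP1L (chr10:102835108-102835137, plus) and GRM2 (chr3:51719279-51719308, plus). Those of other genes are SH3TC1 (chr4:8242343-8242372, plus), SAMD10 (chr20:63974048-63974077, minus) and SERPINA12 (chr14:94486427-94486456, minus). The WBP1L site lies within CYP17A1, the gene that faces it, and the other 5 downstream sites lie outside protein-coding genes. Of the 12 printed sites, that of GPR153 alone was on the strand opposite to its gene. The consensus of PTP4A3, which was passed over, was also on the opposite strand. Over all members with a match the strands were close to even, as given further on.

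The 12 sites had fold enrichments from 23.03 at CHMP1A to 53.6 at RPS19BP1. Fold enrichment is the number of ChIP fragments over the summit plus 1, divided by the local background plus 1. RPS19BP1, a ribosomal protein binding partner, had 394 fragments, and its convergent neighbour is ATF4, a stress transcription factor. ENGASE, a cytosolic glycosidase, had 249 fragments and CHMP1A, an ESCRT-III subunit, had 262. RAB7B, a small GTPase, had 243, SURF6, a nucleolar protein, 240, and MMP17, a membrane-bound metalloproteinase, 218. Downstream, the orphan receptor gene GPR153 had 431 fragments, WBP1L 471 and the glutamate receptor gene GRM2 326. SH3TC1 had 325, SAMD10 328 and the serpin gene SERPINA12 284. CHMP1A and SURF6 lie on different chromosomes, and 29 of their 30 bases are the same.

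RAD21 peaks were denser around 3′ ends than over the rest of the autosomes. The bases from which a member could be drawn, those within 1 kb of a 3′ end and over 1 kb from any 5′ end, came to 30.0 Mb, or 1.18% of all bases that far from 5′ ends. They held 37.4 summits per Mb (35.3 to 39.7). The rest of these bases held 16.2 per Mb (16.0 to 16.3), so the ratio was 2.32 (2.18 to 2.46). The surroundings of 3′ ends were themselves dense in peaks. Between 1 and 5 kb from a 3′ end the density was 31.5 per Mb (30.4 to 32.6), and the members exceeded it by a ratio of 1.19 (1.11 to 1.27).

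**Figure D1:**
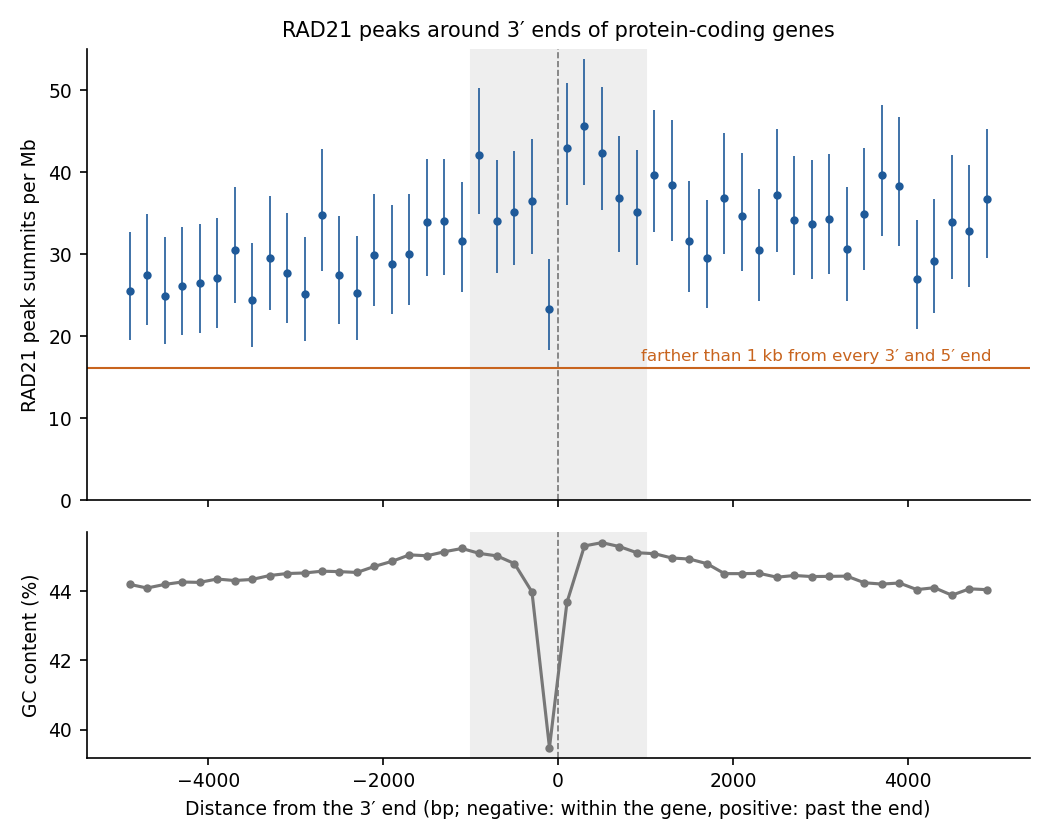
Upper panel: RAD21 peak summits per Mb (vertical axis) in bins of 200 bp by distance from the 3′ end in bp (horizontal axis), over all protein-coding genes of chromosomes 1 to 22; bars are 95% Poisson intervals, the shaded band holds the members and the line marks the 16.2 per Mb of the bases farther than 1 kb from every 3′ and 5′ end. Lower panel: GC content of the same bases in percent, on an axis that does not start at 0. The bin just before the end is the lowest within 5 kb at 23.3 per Mb, and the 3 bins just past it are among the highest, from 42.4 to 45.6 per Mb.

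Within 1 kb, 618 members lay downstream of the 3′ end and 506 upstream. Per base that could hold a member, the densities were 40.7 per Mb (37.5 to 44.03) downstream and 34.1 per Mb (31.2 to 37.2) upstream, a ratio of 1.19 (1.06 to 1.34). The step was sharpest at the end itself. The last 200 bp of the genes held 72 summits at 23.3 per Mb (18.3 to 29.4), and the first 200 bp past the end held 135 at 43.0 per Mb (36.0 to 50.8), a ratio of 1.84 (1.37 to 2.49). Against the 800 bp before them, the last 200 bp had a ratio of 0.632 (0.486 to 0.813). Without these 200 bp the ratio of downstream to upstream was 1.10, and its interval (0.974 to 1.25) included 1. The lean to the downstream side was not confined to the window of the members. In most 200 bp bins between 1 and 5 kb out, the downstream density exceeded the upstream density at the same distance. Densities in these bins ran from 27.0 to 39.6 per Mb downstream and from 24.4 to 34.8 per Mb upstream. Their ratio was not tested.

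Base composition changed at the same place. GC content was 39.5% in the last 200 bp of the genes, 43.7% in the first 200 bp past the end and 45.1% at the far edge of the window on each side. Matches to the CTCF core consensus were also fewer in the last 200 bp, with 18 at 5.83 per Mb (3.46 to 9.22), than in the first 200 bp past the end, with 34 at 10.8 per Mb (7.49 to 15.1). The part of base composition and of consensus sites in the drop of peaks was not tested.

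Strong members were more frequent past the end than within the gene. The median fold enrichment was 7.20 downstream (6.42 to 7.97) and 6.08 upstream (5.47 to 6.88), and the intervals overlapped. A fold enrichment of at least 10 was reached by 249 of the downstream members, 40.3% (36.5 to 44.2), and by 167 of the upstream members, 33.0% (29.05 to 37.2), with intervals that overlapped narrowly. These shares stood against 27.4% of all autosomal peaks, and over all members the share was 37.0% (34.2 to 39.9). The lean to the downstream side was largest among the highest peaks, with no steady rise with height below them. Of the 154 members with a fold enrichment of 20 or more, 105 lay downstream, 68.2% (60.5 to 75.02). Of the 262 from 10 to under 20, 144 did, 54.96% (48.9 to 60.9). Of the 533 between 3 and 10, 273 did, 51.2% (47.0 to 55.4). Of the 175 under 3, 96 did, 54.86% (47.5 to 62.05). These classes were set after values were seen. Among the 50 highest members, 17 lay downstream of genes with a convergent neighbour and 18 downstream of others, with 5 and 10 on the upstream side.

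**Figure D2:**
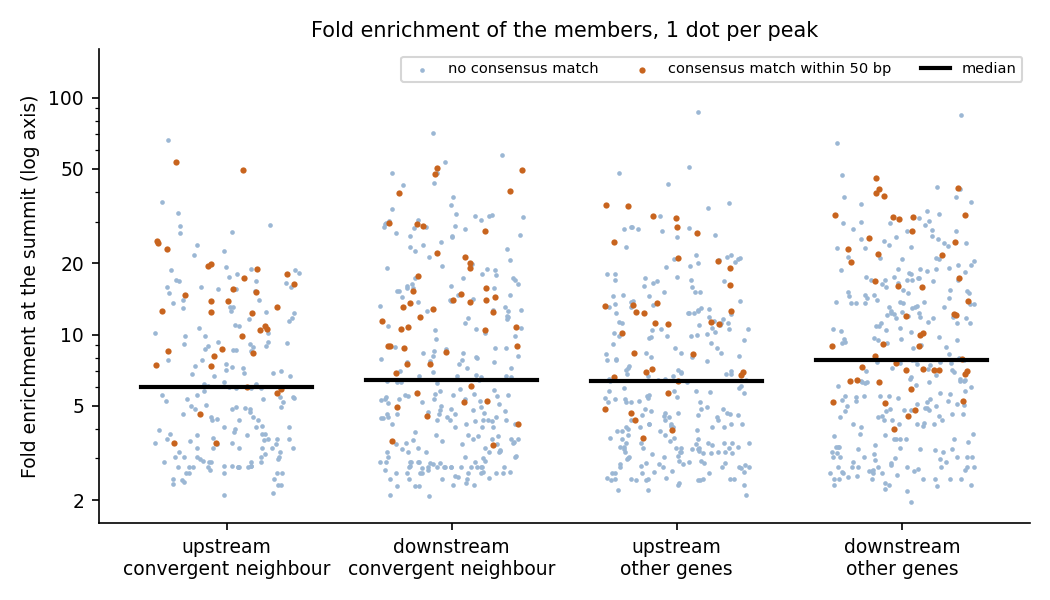
Fold enrichment at the summit (vertical axis, log scale) of each of the 1124 members, 1 dot per peak, in the 4 classes of side and neighbour; orange dots have the CTCF core consensus within 50 bp, blue dots do not, and black lines are medians. The classes overlap almost fully, the highest median is that of downstream members of other genes at 7.78, and orange dots are rare below a fold enrichment of 5.

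The spread within the members was far wider than any difference between classes. Fold enrichment ran from 1.97 to 86.7 with quartiles of 3.62 and 13.8, and the fragments over a summit ran from 15 to 615 with a median of 58. The highest 10% of the members carried 32.9% of their summed fold enrichment. The median of all members was 6.68 (6.29 to 7.23). It was 6.09 for peaks in the bodies of protein-coding genes away from both ends, 6.09 for peaks outside genes and 4.19 (4.08 to 4.20) for peaks at 5′ ends. The members lay above these classes, by the least against gene bodies (5.98 to 6.16) and peaks outside genes (5.98 to 6.19). Peaks 1 to 5 kb from a 3′ end were not set apart as a class. Their medians in bins of 200 bp ran from 5.85 to 9.66 downstream and from 4.49 to 8.12 upstream. The median of the members lay within both ranges, so their height was not particular to the window. Nor was the difference between the sides: in most of these bins the downstream median exceeded the upstream median at the same distance.

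The highest member of all was in SPI1, the gene of the myeloid transcription factor PU.1, at chr11:47355038-47355819. Its summit lay in a coding exon, 529 bp upstream of the 3′ end, under 597 fragments (550 to 647) with a background of 5.90, a fold enrichment of 86.7. Of all autosomal peaks, 99.95% had a lower fold enrichment. The second, 960 bp past the end of the tetraspanin gene CD82 at chr11:44620834-44621870, had 615 fragments (567 to 666) and a fold enrichment of 84.2. Neither SPI1 nor CD82 had the full consensus within 50 bp of the summit, and both had it with 1 mismatch. The next genes past both ends, MYBPC3 and TSPAN18, lie on the same strand.

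The next 3 had no match even with 1 mismatch. SUSD2, a gene of a membrane protein with a sushi domain, had a peak 751 bp past its end at chr22:24189112-24190650 with 518 fragments (474 to 565) and a fold enrichment of 70.97. NANOS3, a germ cell gene of an RNA-binding protein, had a peak 457 bp upstream of its end in an intron, at chr19:13879818-13880693, with 483 fragments (441 to 528) and a fold enrichment of 66.2. ZDHHC19, a palmitoyltransferase gene, had a peak 670 bp past its end at chr3:196196254-196197334 with 488 fragments (446 to 533) and a fold enrichment of 64.1. A missing match says only that these 12 letters were not within 50 bp of the summit.

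The remaining members among the 10 highest had fold enrichments from 50.4 to 57.1. PITX3, a gene of a lens and midbrain homeodomain factor, had the widest of these peaks at 2827 bp, with a summit 227 bp past its end in the 599 bp that separate it from ELOVL3, a fatty acid elongase gene that faces it. Both gene ends were in reach of this summit. SOX13 had its summit 80 bp past the end with 424 fragments and a fold enrichment of 53.5. BDH1, a gene of a ketone body dehydrogenase, and GPR153 each had a strong member and a weak one on the other side of the 3′ end. At BDH1 the fold enrichments were 50.7 upstream and 3.04 downstream, and at GPR153 they were 50.4 downstream and 2.75 upstream. The third highest of their classes were PTP4A3, LRRC45 and SYT8, at 49.7, 48.0 and 47.0.

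Genes with more than 1 member were few. Of the 1232 genes with a member, 24 had at least 2, and FAAP100, a gene of the Fanconi anaemia core complex, was the single gene with 3. Its peaks were weak, with fold enrichments of 3.04, 2.39 and 2.10 on 20, 16 and 21 fragments. Just inside the limit lay the member of HEBP1, with a summit 1000 bp upstream and a fold enrichment of 10.6, and the nearest peak left out was at AGGF1, 1001 bp upstream, with a fold enrichment of 4.69. The median distance from summit to 3′ end was 485 bp.

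Over all gaps, the share of ends with a member was similar in genes with a convergent neighbour and other genes, and the interval of the difference depended on how members were drawn. Of the 8636 genes with a convergent neighbour and at least 1 base that could hold a member, 592 had one, 6.86% (6.34 to 7.41). Of the 9840 others, 640 did, 6.50% (6.03 to 7.01). The difference was 0.351 percentage points (-0.369 to 1.08). It was 0.944 (0.0317 to 1.86) with a limit of 2 kb to the 3′ end and 0.912 (0.155 to 1.68) when only 5′ ends of protein-coding genes were avoided, so that the interval lay above 0 in both, and it was -0.0381 (-0.692 to 0.621) at a q-value of 1e-05. The share over all 18476 genes was 6.67%. Per base, the densities were 37.3 per Mb for genes with a convergent neighbour and 37.6 per Mb for others, a ratio of 0.993 (0.881 to 1.12). When only convergent neighbours up to 10 kb away or overlapping were counted as such, the shares were 7.80% (7.10 to 8.57) and 6.23% for all remaining genes, a difference of 1.57 percentage points (0.754 to 2.44). That contrast also sets close genes against distant ones, so the gap was looked at by itself.

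Pooled over all other genes, the ratio of downstream to upstream was smaller than in genes with a convergent neighbour. Their density was 42.7 per Mb (37.9 to 47.8) downstream and 31.8 per Mb (27.7 to 36.3) upstream, a ratio of 1.34 (1.12 to 1.61). In other genes it was 39.0 per Mb (34.9 to 43.5) downstream and 36.1 per Mb (32.0 to 40.5) upstream, a ratio of 1.08 (0.920 to 1.27). The 2 intervals overlap, and the difference between the ratios was not tested. The other genes were mixed. Ends inside another gene had 27.8 per Mb (19.4 to 38.4) downstream and 46.4 per Mb (35.7 to 59.4) upstream. Genes whose next gene lies on the same strand had more downstream than upstream at every gap to that gene. With a gap over 2 to 10 kb they had 55.5 per Mb downstream and 43.3 upstream, and over 10 to 50 kb 39.4 and 30.1. Taking out peaks with a repeated summit sequence, described further on, raised the ratio over all genes from 1.19 to 1.25 (1.10 to 1.41).

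**Figure D3:**
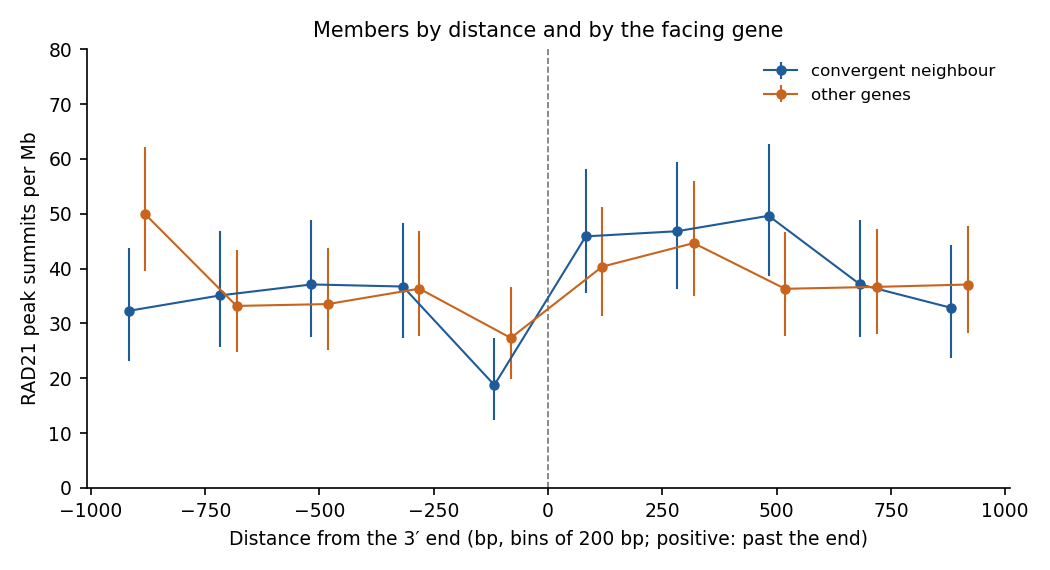
RAD21 peak summits per Mb (vertical axis) in bins of 200 bp by distance from the 3′ end in bp (horizontal axis), for genes with a convergent neighbour (blue) and other genes (orange); points are shifted slightly sideways and bars are 95% Poisson intervals. Both kinds of gene dip just before the end, to 18.8 and 27.3 per Mb, and the convergent genes are higher in the 3 bins from the end to 600 bp past it, with overlapping intervals.

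The distance to the next gene went with the density of peaks whichever way that gene faced. Among genes with a convergent neighbour, the density was 55.04 per Mb (43.6 to 68.5) where the gap was up to 2 kb, 44.6 (37.3 to 53.0) up to 10 kb, 33.8 (27.8 to 40.6) up to 50 kb and 25.96 (20.6 to 32.4) beyond. Among genes whose next gene lies on the same strand, called tandem, the densities over the same gaps were 54.9 (38.5 to 76.0), 49.8 (42.6 to 57.9), 34.9 (30.1 to 40.3) and 28.3 (23.4 to 33.9). At each gap the convergent and tandem values lay within each other's intervals, with ratios from 0.896 to 1.00. Genes that overlap the tail of their convergent neighbour had 37.0 per Mb (30.4 to 44.6), and genes whose end lies inside another gene had 37.3 (30.3 to 45.4).

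**Figure D4:**
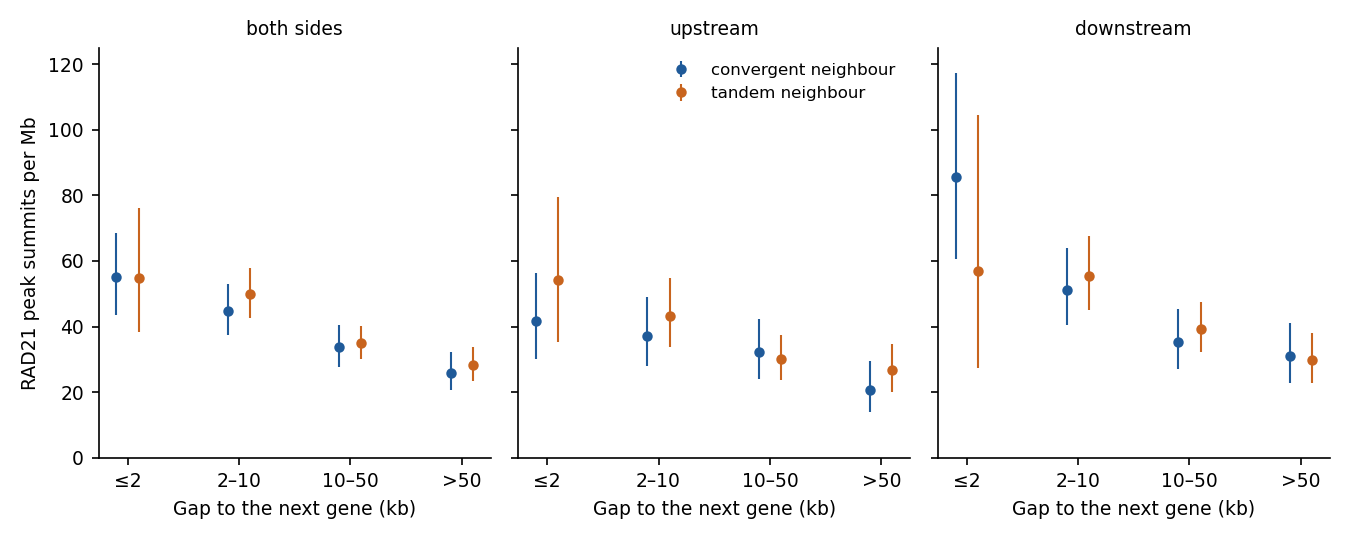
RAD21 peak summits per Mb (vertical axis) by the gap to the next protein-coding gene in kb (horizontal axis), for convergent (blue) and tandem (orange) neighbours, on both sides of the 3′ end together, upstream and downstream; bars are 95% Poisson intervals. The density falls with the gap in both kinds, from 55.04 and 54.9 per Mb at up to 2 kb to 25.96 and 28.3 per Mb beyond 50 kb on both sides together.

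The highest density of any class of gap and side with over 2 summits was found between convergent genes less than 2 kb apart. Their downstream bases, 0.444 Mb in all, held 38 summits at 85.6 per Mb (60.5 to 117). The tandem counterpart held 10 summits on 0.176 Mb, 56.8 per Mb (27.3 to 105), and the ratio of 1.51 (0.736 to 3.39) was not distinguishable from 1 at this number of peaks. In a tandem pair so close, most of the gap lies within 1 kb of the 5′ end of the next gene and was left out by the rule. Counted per gene instead of per base, the share fell with the gap in convergent genes, from 9.35% (7.88 to 11.1) of 1283 ends at up to 2 kb to 4.82% (3.89 to 5.97) of 1638 beyond 50 kb. Tandem genes had 4.84% (3.50 to 6.66) of 723 ends at up to 2 kb, below the 8.76% (7.59 to 10.1) at over 2 to 10 kb, and 5.06% (4.22 to 6.04) beyond 50 kb. The close tandem ends had 0.655 Mb in all from which a member could be drawn.

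The heights of the members did not separate by neighbour beyond their intervals. The median fold enrichment was 6.21 (5.56 to 7.23) for members at genes with a convergent neighbour and 7.03 (6.39 to 7.79) for the others, with overlapping intervals. It was 7.35 (6.52 to 8.37) at tandem genes and 5.80 (4.85 to 6.78) where the end lies inside another gene. A fold enrichment of at least 10 was reached by 35.0% (31.0 to 39.2) of the members at convergent genes and 38.7% (34.9 to 42.6) of the rest.

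The annotation under the summits differed between the sides by construction. Of the 1124 summits, 343 lay in untranslated exons, 30.5% (27.9 to 33.3), 100 in coding exons, 8.90% (7.37 to 10.7), and 63 in introns of the gene. Past the end, 511 summits lay outside protein-coding genes, 45.5% (42.6 to 48.4), and 107 inside another protein-coding gene, 9.52% (7.94 to 11.4). The median fold enrichment was 7.60 (6.68 to 8.98) for summits past the end outside genes, 5.87 (4.20 to 8.55) in coding exons, 6.09 (5.43 to 7.12) in untranslated exons, 6.39 in introns and 6.30 inside another gene. The intervals of these classes overlapped.

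The CTCF core consensus was found within 50 bp of the summit, on either strand, at 170 of the 1124 members, 15.1% (13.1 to 17.3). The share among all autosomal peaks was 11.4%, and it was 13.5% in gene bodies, 12.2% outside genes and 6.99% at 5′ ends. The members stood above peaks at 5′ ends and outside genes, and the interval of their share included that of gene bodies. It was 15.9% (13.2 to 18.9) downstream and 14.2% (11.5 to 17.5) upstream, and 16.4% (13.5 to 19.9) at convergent genes and 14.1% (11.5 to 17.0) at others. With 1 mismatch allowed, 45.3% (42.4 to 48.2) of the members and 38.5% of all peaks had a match. By class it was 45.0% in gene bodies, close to the members, 41.3% outside genes and 24.4% at 5′ ends. GC content within 50 bp of the summit had a median of 58.4% in members and 55.4% in all peaks. By class the median was 53.5% in gene bodies, 52.5% outside genes and 65.3% at 5′ ends.

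Members with the consensus were taller. Their median fold enrichment was 12.2 (10.5 to 13.6), against 5.78 (5.36 to 6.38) for members without it and 4.35 (4.06 to 4.66) for the 615 members with no match at 1 mismatch. None of the 175 members with a fold enrichment under 3 had the consensus, and 43 of the 154 at 20 or more did, 27.9% (21.4 to 35.5). The same gap was present over all autosomal peaks, with medians of 10.8 with the consensus and 5.11 without. Of the 615 members with no match at 1 mismatch, 135 reached a fold enrichment of 10, 21.95% (18.9 to 25.4), SUSD2, NANOS3 and ZDHHC19 among them. The same share was 19.2% (18.6 to 19.9) for peaks outside genes and 17.8% (17.0 to 18.5) in gene bodies.

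**Figure D5:**
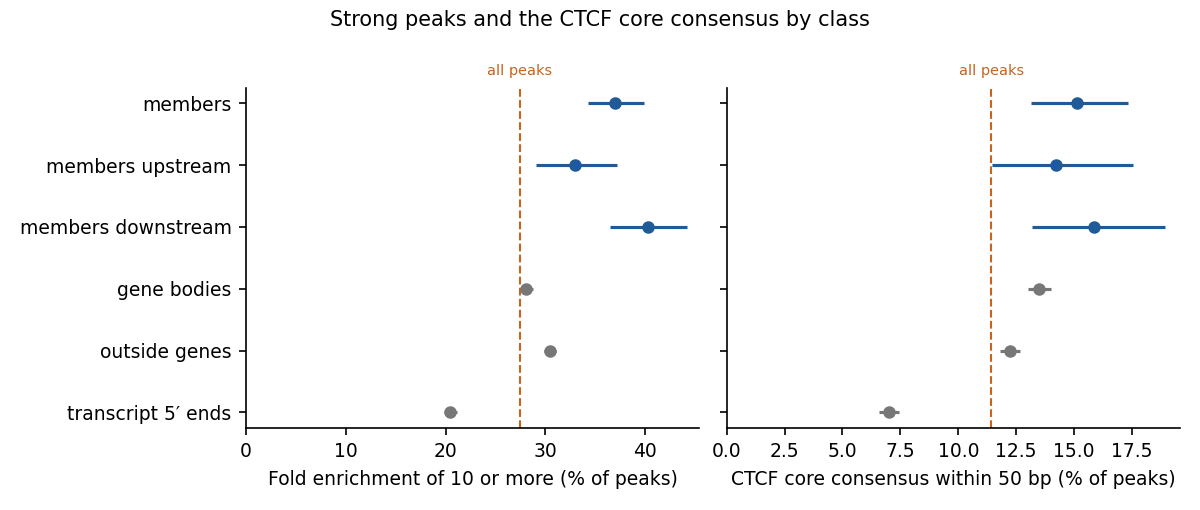
Share of peaks in percent (horizontal axes, from 0) with a fold enrichment of 10 or more (left) and with the CTCF core consensus within 50 bp of the summit (right), for the members, the members on each side of the 3′ end and the 3 other classes of autosomal peaks; bars are 95% Wilson intervals and the dashed lines mark all autosomal peaks, at 27.4% and 11.4%. The members lie to the right of both lines and peaks at transcript 5′ ends to the left.

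Looked at from the sequence, consensus sites were more frequent around 3′ ends and a peak covered them somewhat more often, with intervals that overlapped. The windows from which members were drawn held 259 sites at 8.63 per Mb (7.61 to 9.74), and the rest of the bases over 1 kb from 5′ ends held 3.48 per Mb (3.41 to 3.55). The frequency of sites was not particular to these windows. In bins of 200 bp between 1 and 5 kb from a 3′ end, it ran from 3.87 to 13.5 per Mb. A peak covered 182 of the 259, 70.3% (64.4 to 75.5), and 64.8% (63.8 to 65.8) of the sites elsewhere. By side, 71.3% of the downstream and 69.0% of the upstream sites were covered.

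The direction of the consensus was set against that of the gene, since CTCF acts by direction. Of the 170 members with a match, all of which had a single one, 89 had it on the strand of the gene, 52.4% (44.9 to 59.7), and 81 on the opposite strand. Downstream, 58 of 98 were on the strand of the gene, 59.2% (49.3 to 68.4), and upstream 31 of 72, 43.1% (32.3 to 54.6). At convergent genes the share was 46.4% (36.2 to 57.0) and at other genes 58.1% (47.6 to 68.0). All these intervals include an even split, before repeated sequences are left out. Part of the upstream value came from a single gene family: 8 of the opposite sites lay in copies of TBC1D3. Without members whose summit sequence is repeated, the share was 47.6% (35.8 to 59.7) upstream, 60.2% (50.1 to 69.6) downstream and 52.0% (40.9 to 62.9) at convergent genes. The downstream interval then lay just above an even split, and the convergent value moved from below it to above it.

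Near-identical copies of a locus put a limit on some members. For 52 members, 4.63% (3.55 to 6.02), the 100 bases around the summit had at least 1 other exact copy in the genome, so reads from 1 copy can be placed at another. The largest set was TBC1D3, a hominoid family of genes on chromosome 17, with 11 members between 407 and 630 bp upstream of the 3′ end. Their fold enrichments ran from 7.83 to 19.4 and their summit sequence was present in 9 or 10 copies, so these cannot be counted as independent sites. The 3 members at GGTLC1, GGTLC2 and GGTLC3, gamma-glutamyltransferase light chain genes, had fold enrichments of 21.002, 29.6 and 22.5, and those at the aquaporin genes AQP12A and AQP12B had 26.2 and 21.2. The SURF6 summit had 3 copies. A shared end works in the same direction: 21 protocadherin genes that end at the same base of chromosome 5 were all counted for 1 member, and over distinct end positions the share with a member was 6.57% (1207 of 18377).

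Genes with a member were set against those without for a peak at their own 5′ end. Of the 1232 genes with a member, 437 also had a peak within 1 kb of the gene's 5′ end, 35.5% (32.8 to 38.2), and of the 17244 without a member 5763 did, 33.4% (32.7 to 34.1). The genes with a member were shorter, with a median length of 22816.5 bp (20575 to 25293) against 29220 bp (28424 to 29960). In genes under 10 kb, a member was present at 8.64% (7.24 to 10.3) of the ends where the 5′ end had a peak and at 6.65% (5.84 to 7.57) of those where it had none. Between 10 and 50 kb the shares were 7.12% and 7.68%, the other way round, and at 50 kb or more 6.10% (5.21 to 7.13) and 4.83% (4.21 to 5.53).

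Lists of genes with known roles were read against the 6.67% of all gene ends. Their peaks at 5′ ends stand beside the 35.5% of genes with a member and the 33.4% of genes without. Of 76 cytosolic ribosomal protein genes with a base that could hold a member, 6 had one, 7.89% (3.67 to 16.2), while 50.0% of the whole list had a peak at the 5′ end. These were RPS19 with a fold enrichment of 13.8, RPL22 with 5.32, RPS25 with 4.30, RPL38 with 4.21, RPL36 with 2.62 and RPL35 with 2.61. The 6 had no consensus within 50 bp. Of 17 glycolysis genes, PKM alone had a member, in an intron 867 bp upstream of the end of this pyruvate kinase gene, with 101 fragments and a fold enrichment of 13.4. Of 19 cleavage and polyadenylation factor genes, CPSF1 alone had a member, with 17 fragments and a fold enrichment of 2.36.

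Tissue-specific gene clusters and zinc finger genes had fewer. Members were found at 12 of 413 olfactory receptor genes, 2.91% (1.67 to 5.01), at 18 of 487 genes named ZNF, 3.70% (2.35 to 5.77), and at 0 of 94 keratin-associated protein genes, for which the Wilson interval reaches 3.93% and the limit of 3 counts that a 0 allows is 3.19%. The upper bounds for the first 2 lists lay below 6.67%. OR4F3, OR4F16, OR4F29 and OR2T1 have repeated summit sequences. Without members of that kind, the olfactory receptor share was 1.94% (0.985 to 3.78). The highest among the olfactory receptors were OR2V2 at 29.4, OR52K1 at 21.1 and OR4S1 at 17.0. Those among the ZNF genes were ZNF703 at 38.4, ZNF385C at 29.3 and ZNF653 at 23.9. The ZNF genes were not poor in RAD21 at their 5′ ends, where 39.3% (35.1 to 43.7) had a peak against 2.42% (1.32 to 4.39) of the olfactory receptors. Of all genes with a member 35.5% had such a peak, and of those without 33.4%, so the ZNF share was only modestly higher.

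Of 4 genes looked up by name, ACTB, the cytoplasmic actin gene, had a weak member 54 bp upstream of its end, with 35 fragments and a fold enrichment of 3.44. GAPDH had none: a peak 371 bp upstream of its end had a fold enrichment of 4.88 but fell to a transcript 5′ end, and only 4 bases of its window could have held a member. RAD21 itself had none, its nearest summit being 41725 bp from its 3′ end. TMEM242, the gene that contains the locus imaged in the study, had none either, and its nearest summit lay 7259 bp past its end with a fold enrichment of 10.1.

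The share of gene ends with a member varied between chromosomes. It was highest on chromosomes 17, at 10.9% (9.18 to 12.8), and 22, at 10.7% (8.12 to 14.0), and lowest on chromosomes 13, at 2.52% (1.28 to 4.90), and 4, at 2.66% (1.73 to 4.07). Chromosome 19, with 1396 gene ends, had 8.24% (6.91 to 9.80), below chromosomes 8, at 9.04%, and 20, at 8.63%. The TBC1D3 copies make up 11 of the 116 members of chromosome 17. Members also lay closer to other peaks, with a median of 6525 bp to the nearest summit against 11032 bp for all autosomal peaks. The parts of gene density and of peak density of the region in the share of gene ends with a member were not tested.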

How the data were processed

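The authors trimmed the reads with Trimmomatic (0.39), aligned them to GRCh38 with Bowtie2 (2.5.3), removed duplicates with Picard and called peaks with MACS2 (2.2.9.1) at a q-value of 0.05; deepTools (3.5.4) made other files. Which Input served as control of the WT library is not given in the sources used here. The deposited list holds, for each peak, the fold enrichment (a ratio), the −log10 of the p-value and of the q-value, a score and the summit offset. Fragments and background were recovered from the fold enrichment and p-value, whole for 56839 of 56853 peaks (tolerance 0.05 of a step), with a background floor of 5.90 fragments. The total depth of the library is not in the list.

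Summits were placed on GENCODE version 44 with numba (0.67.0), scipy (1.17.1), pandas (2.3.3) and numpy (2.4.6) under Python (3.11.15), and figures were drawn with matplotlib (3.10.9). Each position belonged to its nearest 3′ end. Densities divide summits by the bases that could hold a member, with assembly gaps left out, and have exact Poisson intervals. Ratios of densities have exact binomial intervals, shares Wilson intervals and medians order-statistic intervals, all at 95%. The calculations were tested on simulated data. Genes were named by rule: the 10 highest members, the 3 highest of each class and of those without a match at 1 mismatch, the 3 genes with most members, the peaks at the limit, list members (the 3 highest in lists of 100 genes or more) and 4 genes. The repeated families, the 50 highest members and the fold enrichment classes were added after values were seen. The members, lists and tests were chosen with earlier results of these data known. The 3 libraries without a peak list here went into no comparison. Alternatives were stricter q-values, a fold enrichment of at least 2, a low background, other distance limits, other 5′ and 3′ ends, other definitions of a convergent neighbour and a looser consensus.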

Additional observations from a re-analysis of the deposited data

How the results depend on the processing

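No paired analysis was possible because a single library had a peak list, so no sample could be paired or left out. All shares, densities and medians of this 1 library carry counting error only. No value whose interval lay on 1 side of no difference changed direction. Limits of 500 bp and 2 kb gave 578 and 2051 members and 18 and 63 listed genes with a member against 38, by construction. The limit of 500 bp also gave 58.8% downstream and a median fold enrichment of 7.23. At q-values of 0.001 and 1e-05 the density was 33.7 and 30.3 per Mb, the median fold enrichment 7.69 and 8.84 and the share of genes with a member that also had a promoter peak 31.4% and 23.8%; these settings drop the weakest peaks. At 1e-05, 18.7% had the consensus, and with 1 mismatch 45.3% did. A background below 2 times the floor gave 34.8 per Mb. The difference in the share of ends with a member between convergent genes and others, 0.351 percentage points (-0.369 to 1.08) in the main comparison, was -0.0381 at a q-value of 1e-05, with an interval that still included 0, 0.944 and 0.912 with a limit of 2 kb and with 5′ ends of protein-coding genes only, where the interval lay above 0, and was 1.57 with a gap of up to 10 kb and 1.44 with a gap of up to 2 kb. The ratio of downstream to upstream density ran from 1.16 (limit of 2 kb) to 1.40 (limit of 500 bp), and its interval stayed above 1 under all 11 of these alternative settings. The interval included 1 without the last 200 bp of the genes, at 1.10 (0.974 to 1.25), and in genes without a convergent neighbour, at 1.08 (0.920 to 1.27). The latter pool tandem genes, which were denser downstream at every gap, with ends inside another gene, which were denser upstream. Of 107 values for the main results, 90 stayed within the main interval or within 1.5 times the main count. The alternatives of distinct end positions and of leaving out repeated summits were chosen after seeing the data.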

Other observations

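The 30 bases printed for the SURF6 member recur across the genome. With at least 26 of the 30 bases the same and the full consensus in place, 259 sites were found on chromosomes 1 to 22, and 253 of them lay under a RAD21 peak, 97.7% (95.04 to 98.9). Among consensus sites over 1 kb from 5′ ends and away from 3′ ends, 64.8% did. The median fold enrichment over the 253 sites in a peak was 13.4. Of these sites, 7 were members: at RASA4B, C8orf33, SURF6, OR52K1, CHMP1A, PSG7 and PSG9. The 30 bases of CHMP1A and OR52K1, on chromosomes 16 and 11, were identical, as were those of SURF6 and RASA4B. The set was picked after its values were seen, starting from a member chosen for its height, and the share of reads that could be placed at another copy was not tested.

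Over all members with the consensus, 23 of 170 had a 30-base site that matched that of another member in at least 26 bases. Besides the SURF6 set, these were the TBC1D3 copies, OR4F3 with OR4F16 and OR4F29, DEFB104A with DEFB104B, PSG4 with PSG7 and PSG9, and C9orf64 with UNC5B, whose sites matched in 27 bases.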
